A study of Mus musculus with 24 samples.

Results

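CD4 T cells from the marrow of mice given ruxolitinib (RUX) were compared directly with CD4 T cells from mice given cyclosporine (CSA). The members are the 6 libraries that the labels assign to CD4 cells and to either drug alone, 3 RUX pools (numbers 19 to 21) and 3 CSA pools (numbers 16 to 18), of 24 libraries in all. Every mouse was a female CByB6F1 mouse, an F1 hybrid strain, aged 2 to 5 months, with immune-mediated bone marrow failure, so no group came from healthy marrow. Each library pooled T cells sorted by flow cytometry from 2 or 3 mice of the same group, and the labels give 3 pools for RUX, CSA, RUX+CSA and no drug in CD4 and again in CD8 cells. The design text calls the ruxolitinib of the combination low dose. Doses and times of dosing are not given in the sources used here.

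Ruxolitinib blocks the kinases JAK1 and JAK2, which sit on cytokine receptors and phosphorylate STAT transcription factors when interferons, interleukins or other cytokines bind. Cyclosporine blocks calcineurin, the phosphatase that is activated by calcium after T cell receptor engagement and that lets NFAT transcription factors enter the nucleus. In CD4 T cells the STAT route carries signals for T helper 1 differentiation and interferon-gamma responses, and the NFAT route carries antigen signals for cytokine genes and for the follicular helper and regulatory programmes. In immune marrow failure, T cells attack blood-forming cells, and cyclosporine is a long-used treatment of the human disease.

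The 6 libraries held 20.0 to 32.7 M (mega) read pairs counted in genes. At these depths a count of 3 corresponds to 0.0916 to 0.15 CPM (counts per mega read pairs), a limit that covers counting error only, since the libraries carry no molecular identifiers. Across genes, Pearson's r between pools on the log2 CPM scale was 0.967 to 0.979 between RUX pools, 0.967 to 0.978 between CSA pools and 0.939 to 0.972 between the groups. The labelled cell type was checked on its defining genes, and they were present. Cd4 was at 1191 to 1485 CPM in RUX pools and 1346 to 1718 CPM in CSA pools, and Cd8a at 1.19 to 4.33 CPM in RUX pools and 1.21 to 6.63 CPM in CSA pools. The summed level of 16 T cell identity genes was 10980 to 11550 CPM with RUX and 10770 to 12250 CPM with CSA. The summed levels of 10 of 14 marker lists overlapped between the drugs, and those of erythroid, gamma-delta T, dendritic and platelet markers did not. The summed level of 20 neutrophil genes was 4266 to 8412 CPM with RUX and 3757 to 18580 CPM with CSA, and all 20 had fold changes below 0 with none past the test. The summed level of 16 erythroid genes was 37.6 to 81.3 CPM with RUX and 289 to 473 CPM with CSA, all 12 tested members lay below 0, and Epor (log2 -2.55, adjusted p = 0.0202) and Gata1 (log2 -3.15, adjusted p = 0.0313) passed the test, with calls lost in 4 (Epor) and 5 (Gata1) of the 6 leave-outs of a RUX or CSA pool (adjusted p up to 0.0917 and 0.140). Hba-a1 was at 0 in all 6 libraries, also in CSA 16, which had the highest erythroid sum of them (473 CPM). Reads that map to several genes were not counted, so this 0 does not show that globin RNA was absent. Alas2, the first enzyme of haem synthesis in red cells, was at 5.34 to 12.4 CPM with RUX and 22.2 to 49.2 CPM with CSA. In sorted pools of this kind, fewer cells of a type and less RNA per cell cannot be told apart. In CD8 cells, used for 1 comparison at the end, the libraries labelled CSA 6 and RUX 7 stood apart from the other pools of their groups.

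RUX-treated and CSA-treated CD4 cells differed in 331 genes. Among the genes lower with RUX were 10 of 32 cytotoxic effector genes, lamin A/C and the interleukin-12 receptor chain Il12rb2. Among those higher with RUX were 7 of 15 follicular helper genes and 6 of 24 regulatory T cell genes. With edgeR's quasi-likelihood test and Benjamini-Hochberg adjustment over 13175 genes tested, 114 genes were higher with RUX and 217 were lower at an adjusted p under 0.05, which is what called means here. Those counts are 2.51% of the genes tested in either direction, 0.865% higher and 1.65% lower. The same shares are the background for each list count given here and below. The lists were chosen with earlier results of these data known, so a count above its background share is a description and no independent support. Among the called genes 46 were more than 2-fold higher and 99 more than 2-fold lower, and the median size of the log2 fold change was 0.936. Over all genes tested the median log2 fold change was -0.00542, and 50.8% of genes lay below 0. In all 331 genes the 3 RUX pools lay on one side of the 3 CSA pools, an arrangement found in 3219 genes or 24.4% of those tested. The count depended on single pools. In all, 91 genes (30 higher and 61 lower with RUX) were called whichever RUX or CSA pool was left out, and none of the 331 changed direction. The count was 126 without RUX 19, 129 without RUX 20, 174 without RUX 21, 283 without CSA 16, 191 without CSA 17 and 128 without CSA 18.

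**Figure D1:**
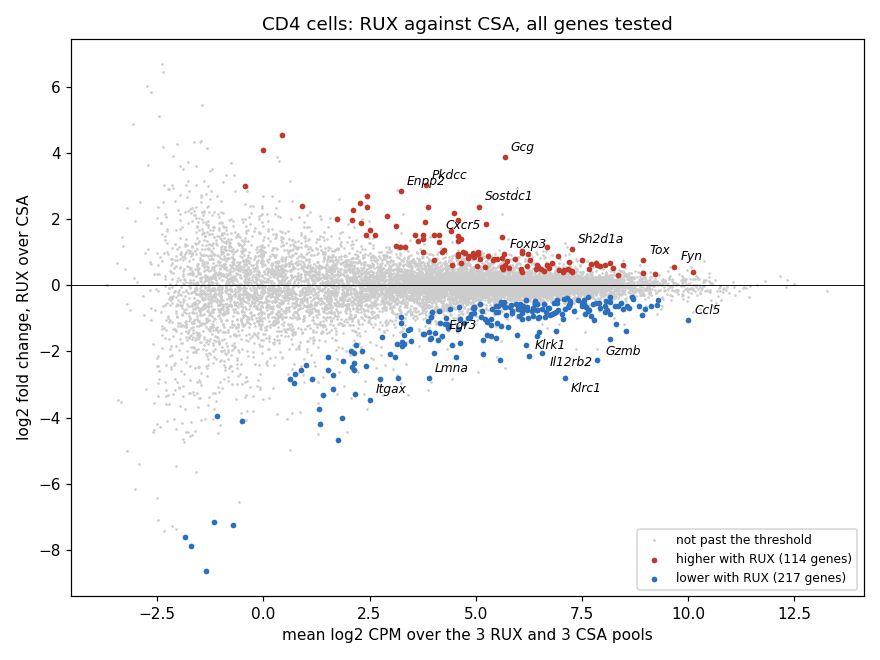
Each point is 1 of the 13175 genes tested, with its mean log2 CPM over the 6 RUX and CSA pools on the horizontal axis and its log2 fold change, RUX over CSA, on the vertical axis. The 114 genes called higher with RUX (red) and the 217 called lower (blue) run over the whole range of levels, and the far points at the lower left are genes with few counts, whose fitted fold changes are no measure of size.

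Among well-measured genes (mean log2 CPM of at least 2), the proglucagon gene Gcg, which encodes the precursor of glucagon and related peptides, had the largest difference in favour of RUX. Gcg was at 162, 223 and 314 CPM in the 3 RUX pools and at 28.9, 13.6 and 3.98 CPM in the 3 CSA pools. All RUX pools were far above all CSA pools, and the CSA pools spread over a wide range (log2 fold change 3.89, SE 0.68, adjusted p = 0.0246). The call on Gcg was lost without CSA 17, RUX 19, RUX 20 or RUX 21, with adjusted p-values of 0.0163 to 0.0978 over the 6 leave-outs of a RUX or CSA pool. Pkdcc, a secreted kinase that phosphorylates extracellular proteins, was at 46.2, 38.0 and 39.9 CPM with RUX and at 7.19, 3.94 and 3.89 CPM with CSA. Pool values were close within each drug and the groups stood well apart (log2 fold change 3.04, SE 0.31, adjusted p = 0.000312). Enpp2, which encodes autotaxin, the enzyme that makes lysophosphatidic acid, was at 23.0, 26.8 and 25.4 CPM with RUX and at 3.04, 3.15 and 4.21 CPM with CSA (log2 fold change 2.86, SE 0.32, adjusted p = 0.000363). The Pkdcc and Enpp2 pools of each drug were close together, and both calls held without any 1 RUX or CSA pool.

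Sostdc1, a secreted antagonist of BMP and Wnt signals, was at 78.4, 76.5 and 81.7 CPM with RUX and at 22.5, 12.4 and 10.2 CPM with CSA (log2 fold change 2.38, SE 0.35, adjusted p = 0.00792). The RUX pools were nearly equal, and the highest CSA pool was still far below them. Gpm6b, a membrane proteolipid-family protein, was at 39.9, 39.8 and 65.2 CPM with RUX and at 10.5, 10.4 and 11.1 CPM with CSA (log2 fold change 2.18, SE 0.29, adjusted p = 0.00177), and the 3 CSA pools were nearly equal. Tox2, an HMG-box transcription factor, was at 47.1, 57.7 and 44.4 CPM with RUX and at 8.98, 8.04 and 20.6 CPM with CSA (log2 fold change 1.99, SE 0.40, adjusted p = 0.0272). CSA 18 was the highest CSA pool for Tox2, and the call was lost in 5 of the 6 leave-outs of a RUX or CSA pool, all but the one without CSA 18 (adjusted p 0.00387 to 0.104). Other genes among the 12 highest with RUX relative to CSA were Tprg (log2 2.70), the actin-bundling protein gene Fscn1 (2.48), Lrig1, which restrains growth factor receptors (2.39), the semaphorin Sema6d (2.29) and the nucleosome-binding protein gene Hmgn3 (2.11). Of these, Sema6d alone lost its call in a leave-out of a RUX or CSA pool (without CSA 17, CSA 18 or RUX 21, adjusted p up to 0.0820).

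Klrc1, which encodes the inhibitory NKG2A receptor of natural killer cells and cytotoxic T cells, was among the 12 well-measured called genes lowest with RUX relative to CSA. It was at 33.2, 78.5 and 50.8 CPM in RUX pools and at 255, 383 and 495 CPM in CSA pools. No RUX pool came near a CSA pool (log2 fold change -2.80, SE 0.32, adjusted p = 0.00256). Gzmb, the granzyme B protease that kills target cells, was at 103, 94.7 and 125 CPM with RUX and at 442, 497 and 601 CPM with CSA (log2 fold change -2.25, SE 0.23, adjusted p = 0.000512). Lmna, which encodes the nuclear lamins A and C, was at 7.04, 4.61 and 5.22 CPM with RUX and at 35.5, 33.9 and 49.3 CPM with CSA (log2 fold change -2.81, SE 0.38, adjusted p = 0.00313). Itga1, the collagen-binding integrin chain found on tissue-resident T cells, was at 3.07, 5.46 and 2.22 CPM with RUX and at 13.6, 24.4 and 38.0 CPM with CSA (log2 fold change -2.81, SE 0.38, adjusted p = 0.00161). The calls on Klrc1, Gzmb, Lmna and Itga1 held without any 1 RUX or CSA pool. Klrc1 has close relatives in the same gene family, and reads that map equally well to them were not counted, so its level is uncertain.

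Itgax, the integrin chain CD11c, had the lowest fold change of the well-measured called genes (mean log2 CPM of 2 or more). It was at 2.98, 1.18 and 1.53 CPM with RUX and at 7.12, 23.1 and 32.8 CPM with CSA (log2 fold change -3.46, SE 0.68, adjusted p = 0.0221), and the CSA pools differed widely among themselves. The call on Itgax was lost in 5 of 6 leave-outs of a RUX or CSA pool, all but the one without CSA 16 (adjusted p up to 0.118). Serpinb9b, of the granzyme-inhibitor serpin family, was at 3.46, 1.01 and 0.542 CPM with RUX and at 11.2, 9.88 and 29.2 CPM with CSA (log2 fold change -3.29, SE 0.75, adjusted p = 0.0451), and lost its call in 5 of 6 leave-outs, all but the one without RUX 19 (adjusted p up to 0.194). Klra3, an Ly49 receptor of natural killer cells, was at 1.28, 5.26 and 1.77 CPM with RUX and at 13.7, 27.9 and 18.1 CPM with CSA (log2 fold change -2.83, SE 0.53, adjusted p = 0.0196), and lost its call without CSA 17, CSA 18, RUX 19 or RUX 21 (adjusted p up to 0.0746). Ajuba, a LIM-domain scaffold protein gene, was at 31.0, 15.9 and 19.5 CPM with RUX and at 120.3, 119 and 80.1 CPM with CSA (log2 fold change -2.27, SE 0.42, adjusted p = 0.0239), and lost its call in all leave-outs of a RUX or CSA pool but the one without RUX 19 (adjusted p up to 0.108). Cd163l1, a scavenger receptor gene, was at 1.82, 3.50 and 1.63 CPM with RUX and at 12.5, 14.5 and 10.8 CPM with CSA (log2 fold change -2.44, SE 0.48, adjusted p = 0.0144), and lost its call without RUX 19 or RUX 21 (adjusted p up to 0.0869). The lysosomal protein gene Gpr137b (log2 -2.56), the corepressor gene Cbfa2t3 (-2.46) and Ly6g5b (-2.35) were also lower with RUX. Gpr137b has a pseudogene copy, Gpr137b-ps, which was lower as well (log2 -1.14, adjusted p = 0.0192) and lost its call without CSA 18, RUX 19 or RUX 20, adjusted p up to 0.0964. Serpinb9b and Klra3 also have close family members, and reads that map to several genes were not counted, so the values of these genes are uncertain.

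Marker sums of other cells stand beside those genes. Itgax, Ccr9 and Xcr1 were the called members of a list of 13 dendritic cell markers, whose summed level was 89.5 to 102.5 CPM with RUX and 106 to 141 CPM with CSA. That sum includes the called genes themselves, and Itgax alone averaged 1.89 CPM with RUX and 21.0 CPM with CSA. It is therefore no separate measure of dendritic cell RNA beside these genes. Of the 10 tested members of the list 7 lay below 0, and the plasmacytoid marker Siglech was at a mean of 0 CPM with RUX and 0.146 CPM with CSA. Cd163l1 made up most of the summed level of the 3 gamma-delta T cell markers in the table, which was 2.00 to 3.58 CPM with RUX and 13.6 to 15.0 CPM with CSA. The summed level of 10 platelet and megakaryocyte markers was 2.28 to 3.42 CPM with RUX and 5.66 to 11.5 CPM with CSA. That of 13 natural killer cell markers was 213 to 268 CPM with RUX and 149 to 291 CPM with CSA. Of its 11 tested members 8 lay below 0, with a median of -1.04, and Klrb1b was called lower and Xcl1 and Eomes higher. The natural killer receptor gene Klrb1c was at 0.0607, 0.196 and 0.838 CPM with RUX and at 4.89, 3.11 and 24.5 CPM with CSA, with no overlap and no call (log2 -4.98, adjusted p = 0.120). Ncr1, another defining marker, was at 0 to 0.05 CPM with RUX and 0.0465 to 0.471 CPM with CSA. With the mean level of neutrophil, erythroid, B cell and macrophage markers as a covariate, 396 genes were called, 276 of them shared with the 331. Of the 59 named genes that were called, all kept their direction with that covariate and 56 kept their call, although 58.1% of the covariate's variance lay between the CD4 groups. Beyond that covariate, the part of these markers in the results was not tested.

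**Figure D2:**
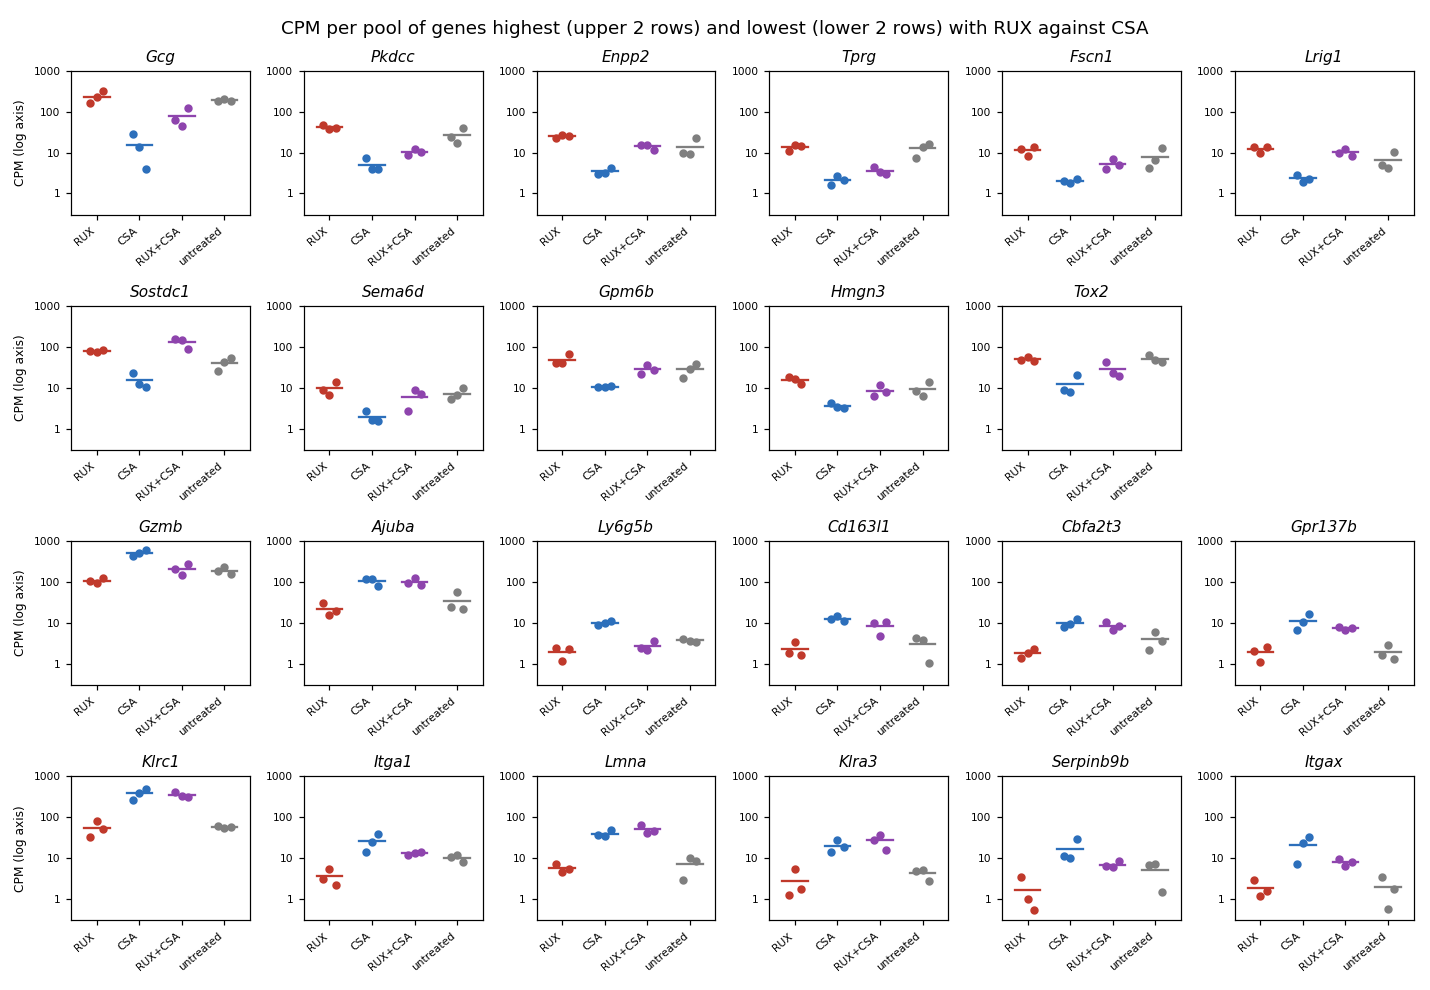
CPM per pool on a log axis for 11 of the 12 well-measured genes with the highest fold change (upper 2 rows) and the 12 with the lowest (lower 2 rows), with 3 pools for each of RUX, CSA, RUX+CSA and untreated mice and a bar at each mean. The genes were chosen among called genes whose RUX and CSA pools do not overlap, so the gap in every panel follows from that choice. Such an arrangement was found in 24.4% of all genes tested. For Klrc1 and Lmna the RUX+CSA pools lie with the CSA pools.

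The promoters of the 2 highest and the 2 lowest of the well-measured called genes above (mean log2 CPM of at least 2) are printed to show their regulatory sequence. They come from RefSeq on GRCm38.p6 (mm10), from 250 bases before the gene start to 50 after it, 5′ to 3′ on the gene's strand. Capitals mark matches of TTCNNNGAA, the palindromic STAT site, or of GGAAA, the NFAT core, searched on both strands, where a match on the other strand reads TTTCC.
Gcg, chr2:62483604-62483903, minus strand: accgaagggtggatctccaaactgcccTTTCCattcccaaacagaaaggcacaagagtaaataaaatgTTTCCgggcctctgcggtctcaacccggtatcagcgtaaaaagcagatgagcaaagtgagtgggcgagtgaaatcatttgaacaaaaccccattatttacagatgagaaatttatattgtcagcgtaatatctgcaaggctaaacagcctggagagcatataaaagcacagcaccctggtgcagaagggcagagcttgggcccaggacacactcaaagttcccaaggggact
Pkdcc, chr17:83215033-83215332, plus strand: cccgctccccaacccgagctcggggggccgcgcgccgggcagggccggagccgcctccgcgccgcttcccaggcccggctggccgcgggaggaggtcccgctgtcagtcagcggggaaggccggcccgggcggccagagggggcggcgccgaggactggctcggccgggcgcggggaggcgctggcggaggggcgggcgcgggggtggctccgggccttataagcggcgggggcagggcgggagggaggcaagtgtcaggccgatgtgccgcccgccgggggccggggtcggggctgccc
Itgax, chr7:128129300-128129599, plus strand: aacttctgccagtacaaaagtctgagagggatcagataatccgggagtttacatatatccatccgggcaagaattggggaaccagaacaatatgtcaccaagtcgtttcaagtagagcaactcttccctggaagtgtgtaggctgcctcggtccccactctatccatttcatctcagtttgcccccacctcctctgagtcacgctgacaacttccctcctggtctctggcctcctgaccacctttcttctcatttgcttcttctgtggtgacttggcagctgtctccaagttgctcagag
Serpinb9b, chr13:33027164-33027463, plus strand: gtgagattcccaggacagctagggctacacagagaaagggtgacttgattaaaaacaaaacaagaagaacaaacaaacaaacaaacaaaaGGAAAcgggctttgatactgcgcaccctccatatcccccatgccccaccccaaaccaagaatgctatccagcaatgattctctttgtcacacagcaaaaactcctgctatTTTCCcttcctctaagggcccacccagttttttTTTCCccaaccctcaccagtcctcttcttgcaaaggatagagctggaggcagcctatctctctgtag
No TTCNNNGAA match lies in any of the 4 windows, and 8.33% of 32544 distinct RefSeq promoter windows of the same length hold one. GGAAA on either strand occurs 2 times in the Gcg window, 3 times in the Serpinb9b window and 0 times in the Pkdcc and Itgax windows. It occurs in 61.5% of all windows, with a median of 1 match a window. No match overlapped another kind of match.

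Of the cytokine receptors and their kinases, Il12rb2 had the smallest p of all genes. It encodes the signalling chain of the interleukin-12 receptor, which activates STAT4 during T helper 1 differentiation, and lies at chr6:67292018-67376137 on mm10. Il12rb2 was at 48.2, 47.8 and 45.1 CPM with RUX and at 163, 229 and 186 CPM with CSA. The RUX pools were nearly equal and every CSA pool was far above them (log2 fold change -2.03, SE 0.16, adjusted p = 5.15e-05). Il18rap, the accessory chain of the interleukin-18 receptor, was at 260.0, 266 and 306 CPM with RUX and at 389, 412 and 572 CPM with CSA (log2 fold change -0.72, SE 0.15, adjusted p = 0.0196). Ptpn6, the phosphatase SHP-1 that restrains receptor signalling, was at 425, 444 and 483 CPM with RUX and at 692, 699 and 701 CPM with CSA (log2 fold change -0.63, SE 0.14, adjusted p = 0.0239). Stat5a, which carries interleukin-2 family signals, was the called member that was higher with RUX (122, 112 and 96.5 CPM) than with CSA (77.7, 84.3 and 72.5 CPM, log2 fold change 0.50, SE 0.11, adjusted p = 0.0269). Among 33 receptor, kinase and STAT genes tested, 1 was higher and 3 lower with RUX, against 0.865% and 1.65% of all genes, and the list median was -0.06. Transcripts of the kinases themselves averaged 1113 ± 28.6 CPM with RUX and 1106 ± 70.6 CPM with CSA for Jak1 (log2 0.01, adjusted p = 0.973) and 382 ± 43.1 CPM with RUX and 361 ± 32.3 CPM with CSA for Jak2 (SD, n = 3, log2 0.08, adjusted p = 0.743). The call on Il12rb2 held in every leave-out of a RUX or CSA pool. The others were lost in some leave-outs: Il18rap without CSA 18, RUX 19 or RUX 20, adjusted p up to 0.101; Ptpn6 without CSA 17, CSA 18, RUX 19, RUX 20 or RUX 21, adjusted p up to 0.123; and Stat5a without CSA 16, CSA 18, RUX 19 or RUX 20, adjusted p up to 0.143.

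Direct targets of STAT signalling were called in both directions. Of 35 feedback inhibitors and STAT5 targets tested, 2 were higher with RUX (Xcl1 and Tnfrsf9) and 3 were lower (Gzmb, Dusp5 and Pim1), against 0.865% and 1.65% of all genes. The list median was -0.06. Xcl1 lost its call without CSA 17, CSA 18, RUX 19, RUX 20 or RUX 21, adjusted p up to 0.0873, and Tnfrsf9 with each of the 6 left out in turn, adjusted p up to 0.164, so that 0 to 2 members were called higher and 2 to 4 lower in these leave-outs. The feedback inhibitor Cish was at 212, 115 and 213 CPM with RUX and at 202, 185 and 112 CPM with CSA, and the groups overlapped (log2 fold change 0.11, SE 0.38, adjusted p = 0.924). Socs1, the suppressor that JAK-STAT signals induce, was at 178, 96.6 and 126 CPM with RUX and at 93.8, 79.3 and 54.2 CPM with CSA. Its groups did not overlap, yet it did not pass the test (log2 fold change 0.82, SE 0.27, adjusted p = 0.167). Dusp5, a phosphatase of ERK kinases, was at 92.3, 66.9 and 77.3 CPM with RUX and at 128, 145 and 171 CPM with CSA (log2 fold change -0.91, SE 0.15, adjusted p = 0.00589). Pim1, a survival kinase, averaged 43.7 ± 11.4 CPM with RUX and 78.8 ± 2.11 CPM with CSA (log2 fold change -0.85, SE 0.20, adjusted p = 0.0405), a call lost without CSA 16, CSA 17, CSA 18, RUX 19 or RUX 20, adjusted p up to 0.166. The survival gene Bcl2 was at 324, 260.4 and 367 CPM with RUX and at 299, 271 and 351 CPM with CSA (log2 fold change 0.05, SE 0.26, adjusted p = 0.956). Il2ra, the high-affinity interleukin-2 receptor chain, was at 131, 90.0 and 146 CPM with RUX and at 124, 135 and 53.6 CPM with CSA, with the lowest value in CSA 18 (log2 fold change 0.23, SE 0.37, adjusted p = 0.815). Directions for Cish, Bcl2 and Il2ra changed sign in leave-outs of single pools.

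Interferon-induced genes mostly had fold changes above 0, where 50.8% of all genes lay below 0, and 1 gene passed the test in each of the 2 interferon lists. Over the leave-outs of a RUX or CSA pool, the list medians ranged from 0.17 to 0.55 (interferon-gamma) and from 0.14 to 0.46 (type I). Genes of such lists can vary together between pools, so the numbers above 0 do not count independent observations. Of 40 genes of the interferon-gamma response, 32 had fold changes above 0 and the median was 0.36, and the single call was Pdcd1lg2, the ligand PD-L2. Pdcd1lg2 was at 26.9, 24.0 and 28.2 CPM with RUX and at 53.5, 60.1 and 47.2 CPM with CSA (log2 fold change -1.02, SE 0.18, adjusted p = 0.00728). Irf1, the transcription factor that interferon-gamma induces, was at 462, 438 and 489.5 CPM with RUX and at 398, 461 and 318 CPM with CSA, and the groups overlapped (log2 fold change 0.24, SE 0.13, adjusted p = 0.385). Gbp2, an interferon-induced GTPase, averaged 245 ± 27.2 CPM with RUX and 181 ± 60.0 CPM with CSA (log2 fold change 0.44, SE 0.24, adjusted p = 0.401). Of 45 type I interferon genes 35 lay above 0 with a median of 0.29, and Lgals3bp, a secreted glycoprotein gene, was called higher. It was at 247, 239.9 and 238 CPM with RUX and at 173, 192 and 146 CPM with CSA (log2 fold change 0.50, SE 0.11, adjusted p = 0.0239), and lost its call in all leave-outs of a RUX or CSA pool but the one without CSA 17 (adjusted p up to 0.113). Ifng itself, the T helper 1 cytokine, was at 129.5, 131 and 239 CPM with RUX and at 187, 182 and 86.3 CPM with CSA, with no separation of the groups (log2 fold change 0.13, SE 0.35, adjusted p = 0.896).

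On the calcineurin side, genes of the pathway itself gave 1 call. Among 27 tested genes for calcineurin subunits, calcium channels and their regulators, it was Nfatc3. This NFAT factor was at 285, 293 and 339.6 CPM with RUX and at 397, 506 and 523 CPM with CSA (log2 fold change -0.64, SE 0.13, adjusted p = 0.0201), and lost its call without CSA 17, CSA 18, RUX 19 or RUX 20 (adjusted p up to 0.114). Of 36 NFAT target genes tested, 5 were higher with RUX (Tox, Xcl1, Ikzf2, Tnfrsf9 and Spry1) and 2 were lower (Egr3 and Csf2), against 0.865% and 1.65% of all genes. The list median was 0.19, or -0.01 without CSA 18. With 1 RUX or CSA pool left out, 1 to 2 members were called higher and 1 to 2 lower, where Tox and Egr3 were called each time. The calls on Ikzf2 and Spry1, a feedback inhibitor of receptor kinases, were each lost in 5 of 6 leave-outs of a RUX or CSA pool (adjusted p up to 0.110 for Ikzf2 and 0.187 for Spry1). Tox, an HMG-box factor induced by sustained NFAT signals, was at 585, 634 and 706 CPM with RUX and at 378, 426 and 329.8 CPM with CSA (log2 fold change 0.76, SE 0.11, adjusted p = 0.00273). Xcl1, the chemokine lymphotactin, was at 9.02, 10.0 and 10.1 CPM with RUX and at 3.68, 2.51 and 1.57 CPM with CSA (log2 fold change 1.89, SE 0.39, adjusted p = 0.0192). Egr3, a zinc-finger factor induced by T cell receptor signals, went the other way, with 11.2, 9.80 and 11.9 CPM with RUX and 34.1, 31.8 and 28.4 CPM with CSA. All 3 RUX pools for Egr3 were below every CSA pool by a wide margin (log2 fold change -1.52, SE 0.16, adjusted p = 0.000336). The related Egr1, from the list of 27 immediate early genes in which it was the single call, was at 92.9, 73.6 and 130.2 CPM with RUX and at 164, 161 and 219.9 CPM with CSA (log2 fold change -0.88, SE 0.18, adjusted p = 0.0215).

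Several classical NFAT targets did not pass the test. Egr2 was at 41.8, 46.7 and 54.9 CPM with RUX and at 50.2, 52.6 and 23.7 CPM with CSA, with CSA 18 alone below the RUX pools (log2 fold change 0.18, SE 0.24, adjusted p = 0.770). Nr4a1, the orphan receptor Nur77 induced within hours of antigen signals, was at 79.1, 40.4 and 88.4 CPM with RUX and at 142, 119 and 251 CPM with CSA, with every RUX pool lower than every CSA pool (log2 fold change -1.30, SE 0.43, adjusted p = 0.181). Cd40lg, the helper ligand for B cells, was at 128, 115 and 153 CPM with RUX and at 164, 195 and 138 CPM with CSA, and the groups overlapped (log2 fold change -0.33, SE 0.18, adjusted p = 0.386). Rcan1, the calcineurin feedback inhibitor, averaged 23.7 ± 4.21 CPM with RUX and 16.3 ± 1.78 CPM with CSA (log2 fold change 0.54, SE 0.22, adjusted p = 0.231). Il2, the T cell growth factor gene, was low in both groups at 1.91 ± 0.768 CPM with RUX and 1.63 ± 0.755 CPM with CSA (log2 fold change 0.23, SE 0.52, adjusted p = 0.876). The calls on Tox and Egr3 held without any 1 RUX or CSA pool. Xcl1 lost its call in all of these leave-outs but the one without CSA 16 (adjusted p up to 0.0873), and Egr1 without CSA 18, RUX 19 or RUX 20 (up to 0.101).

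Of the gene lists, the cytotoxic effector list held the most genes lower with RUX than with CSA. Of 32 tested members 10 were lower and 1 was higher, against 1.65% and 0.865% of all genes, and the list median was -0.33. Against untreated mice the list median was -0.15 with RUX, with no member called. With CSA it was 0.24 against untreated mice, with 7 members called higher. Klrk1, the activating receptor NKG2D, was at 37.4, 29.7 and 43.5 CPM with RUX and at 150.4, 177 and 154 CPM with CSA (log2 fold change -2.13, SE 0.20, adjusted p = 0.000312). Slamf7, a receptor of activated cytotoxic cells, was at 39.3, 38.5 and 40.7 CPM with RUX and at 106, 149.8 and 156 CPM with CSA (log2 fold change -1.80, SE 0.19, adjusted p = 0.000344). Klrd1, the CD94 chain that pairs with NKG2A, was at 63.3, 73.4 and 82.9 CPM with RUX and at 184, 196 and 196 CPM with CSA (log2 fold change -1.39, SE 0.16, adjusted p = 0.000463). In each of these genes the RUX pools formed a tight group under the CSA pools. Klrk1 (chr6:129610323-129623864), Klrd1 (chr6:129591811-129598775) and Klrc1 (chr6:129666016-129678973) lie close together on mm10 chromosome 6, in the natural killer receptor gene cluster. Klrg1, a receptor of late effector cells, was at 61.0, 45.0 and 49.1 CPM with RUX and at 86.7, 83.9 and 104 CPM with CSA (log2 fold change -0.82, SE 0.13, adjusted p = 0.00483). Serpinb9, the inhibitor that protects killer cells from their own granzyme B, averaged 154 ± 10.3 CPM with RUX and 295 ± 62.2 CPM with CSA (log2 fold change -0.94, SE 0.17, adjusted p = 0.00902), a call lost without RUX 19 or RUX 21, adjusted p up to 0.0514. Serpinb6b, another granzyme-inhibiting serpin, averaged 60.2 ± 10.1 CPM with RUX and 114 ± 21.9 CPM with CSA (log2 fold change -0.92, SE 0.18, adjusted p = 0.0134), a call lost without CSA 18, RUX 19 or RUX 21, adjusted p up to 0.0788. Granzyme C (Gzmc) averaged 0.879 ± 0.769 CPM with RUX and 22.2 ± 7.66 CPM with CSA (log2 fold change -4.70, SE 0.95, adjusted p = 0.0311), a call lost without CSA 17, CSA 18, RUX 20 or RUX 21, adjusted p up to 0.116. Its level is uncertain because reads shared with similar granzyme genes were not counted.

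Not all cytotoxic genes were lower. Eomes, the T-box factor of cytotoxic and memory T cells, was higher with RUX at 61.0, 95.3 and 60.7 CPM than with CSA at 22.4, 17.2 and 20.6 CPM (log2 fold change 1.85, SE 0.40, adjusted p = 0.0459), a call lost with each of the 6 left out in turn, adjusted p up to 0.181. Gzmk, the granzyme that often accompanies Eomes, was at 157, 251 and 133 CPM with RUX and at 19.0, 23.3 and 27.4 CPM with CSA. Its groups did not overlap, but its adjusted p was just above the threshold and it was not called (log2 fold change 2.96, SE 0.64, adjusted p = 0.0561). Prf1, the pore-forming protein perforin, averaged 56.5 ± 8.18 CPM with RUX and 71.8 ± 9.34 CPM with CSA (log2 fold change -0.35, SE 0.23, adjusted p = 0.491), Fasl, the death ligand, 118 ± 30.7 CPM with RUX and 108 ± 17.8 CPM with CSA (log2 fold change 0.12, SE 0.19, adjusted p = 0.811) and the granule protein gene Nkg7 1728 ± 85.3 CPM with RUX and 1733 ± 112 CPM with CSA (log2 fold change -0.00, SE 0.08, adjusted p = 0.985). Between 7 and 10 members were called lower in the 6 leave-outs of a RUX or CSA pool, and no member was called higher in any of them. Klrk1, Slamf7, Klrd1, Klrg1, Klrc1 and Gzmb kept their calls throughout. Natural killer cell markers stand beside these genes. Their summed level overlapped between the drugs, while 8 of 11 tested members lay below 0, Klrb1b was lower with RUX (log2 fold change -2.05, SE 0.38, adjusted p = 0.00985, a call lost without CSA 18 or RUX 20, adjusted p up to 0.0624) and Klrb1c was lower in every RUX pool than in any CSA pool. Their part in the cytotoxic genes was not tested.

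The T helper 1 list held some of the same genes. Of 19 tested, Il12rb2, Il18rap and Ccl5 were lower with RUX and none was higher, against 1.65% and 0.865% of all genes, with a median of -0.06. Ccl5, the chemokine RANTES, was at 713, 695 and 748 CPM with RUX and at 1149, 1551 and 1790.0 CPM with CSA, every RUX pool below every CSA pool (log2 fold change -1.06, SE 0.13, adjusted p = 0.000847). Tbx21, the master T helper 1 factor T-bet, was at 237, 225 and 238 CPM with RUX and at 264, 322 and 281 CPM with CSA. The RUX pools lay below the CSA pools without passing the test (log2 fold change -0.31, SE 0.12, adjusted p = 0.216). Cxcr3, a T-bet target and homing receptor, averaged 522 ± 38.6 CPM with RUX and 457 ± 60.7 CPM with CSA (log2 fold change 0.19, SE 0.12, adjusted p = 0.439).

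**Figure D3:**
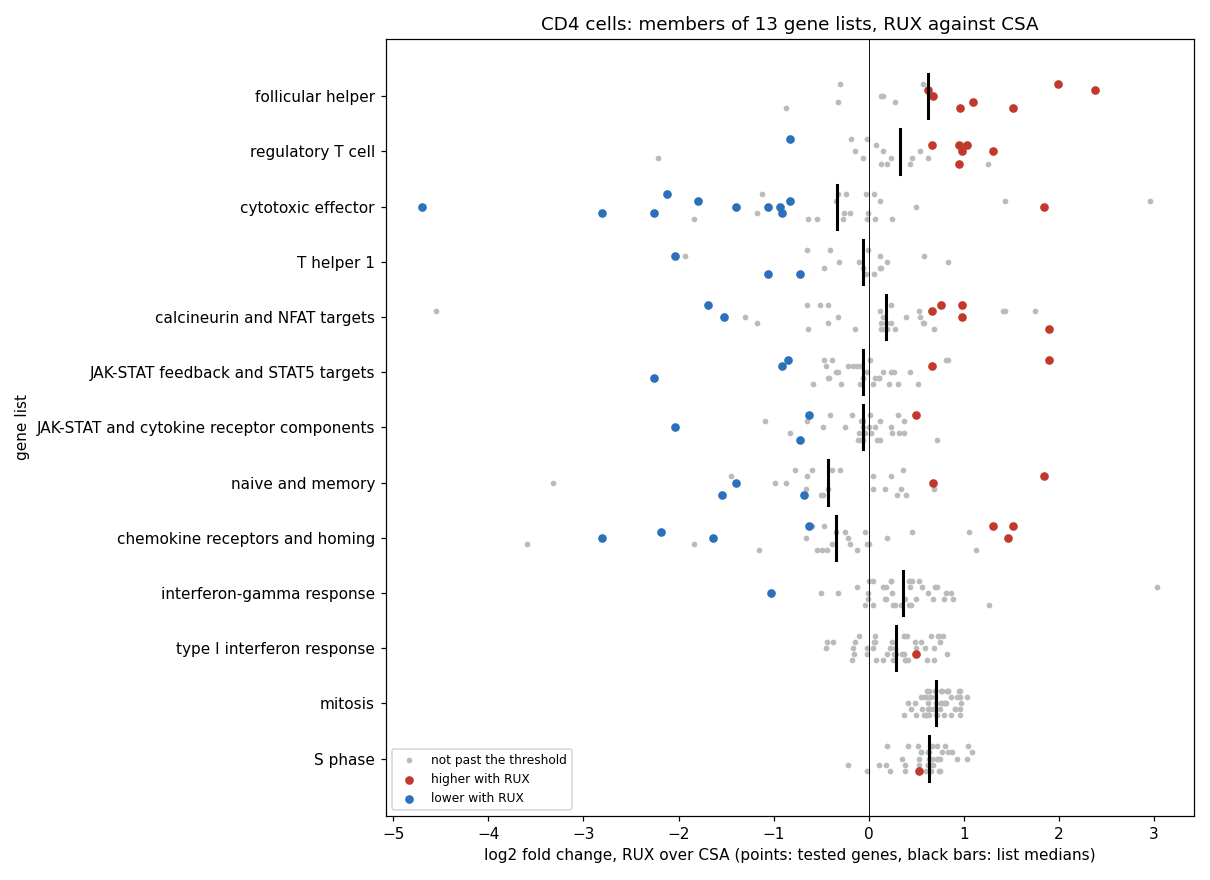
Log2 fold change, RUX over CSA, of the tested members of 13 gene lists, with 1 point a gene, called genes in red (higher with RUX) and blue (lower), and a black bar at each list median. Calls lie on the right for follicular helper genes, mainly on the right for regulatory T cell genes and mainly on the left for cytotoxic genes, and all 52 mitosis genes lie to the right of 0 without a call.

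Follicular helper genes had the highest share of calls among the T helper lists. Of 15 tested, 7 were higher with RUX and none was lower, against 0.865% and 1.65% of all genes, and the median was 0.62. Against untreated mice the list median was 0.115 with RUX, with no member called, and -0.35 with CSA, with 4 members called lower. Sh2d1a, which encodes the SAP adaptor needed for T cell help to B cells, was at 229, 251 and 196 CPM with RUX and at 112, 103 and 101 CPM with CSA (log2 fold change 1.10, SE 0.12, adjusted p = 0.000344). Cxcr5, the receptor that brings helper cells into B cell follicles, was at 27.3, 42.0 and 23.1 CPM with RUX and at 11.5, 7.25 and 13.6 CPM with CSA (log2 fold change 1.52, SE 0.28, adjusted p = 0.0114). In both genes the RUX pools were all higher. Angptl2, a secreted angiopoietin-like protein gene, averaged 45.8 ± 7.49 CPM with RUX and 23.6 ± 5.94 CPM with CSA (log2 fold change 0.96, SE 0.18, adjusted p = 0.0129), a call lost without CSA 18 or RUX 19, adjusted p up to 0.0729. Slamf6, a self-ligand receptor that signals through SAP, averaged 364 ± 92.3 CPM with RUX and 227 ± 17.9 CPM with CSA (log2 fold change 0.68, SE 0.16, adjusted p = 0.0403), a call lost without CSA 16, CSA 17, CSA 18, RUX 20 or RUX 21, adjusted p up to 0.164. Cd200, a surface ligand of follicular helper cells, averaged 128 ± 2.35 CPM with RUX and 83.2 ± 16.3 CPM with CSA (log2 fold change 0.62, SE 0.14, adjusted p = 0.0264), a call lost without CSA 18, RUX 19, RUX 20 or RUX 21, adjusted p up to 0.0985. Sostdc1 and Tox2, described above, were the other members called.

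Bcl6, the defining transcription factor of the follicular programme, did not pass the test. It averaged 16.3 ± 1.96 CPM with RUX and 20.4 ± 5.86 CPM with CSA (log2 fold change -0.33, SE 0.23, adjusted p = 0.527), and the helper cytokine Il21 averaged 168 ± 40.7 CPM with RUX and 151 ± 80.3 CPM with CSA (log2 fold change 0.15, SE 0.47, adjusted p = 0.917). Pdcd1, the PD-1 receptor that is abundant on these cells, averaged 931 ± 118 CPM with RUX and 629 ± 128 CPM with CSA (log2 fold change 0.57, SE 0.18, adjusted p = 0.132), and the costimulator Icos 407 ± 27.9 CPM with RUX and 335 ± 29.3 CPM with CSA (log2 fold change 0.28, SE 0.09, adjusted p = 0.148). Leaving out a RUX or CSA pool gave 3 to 5 calls in the list, and a fit on all 24 libraries gave 3. Sh2d1a and Sostdc1 were called in each leave-out, and Cxcr5 lost its call without RUX 20 (adjusted p = 0.0587).

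Of 24 regulatory T cell genes tested, 6 were higher with RUX and 1 was lower, against 0.865% and 1.65% of all genes. The other 17 did not pass, and the median was 0.33. Against untreated mice the list median was 0.16 with RUX, with no member called, and -0.18 with CSA, with 4 members called lower. Foxp3, the lineage factor of regulatory T cells, was at 69.9, 72.4 and 69.0 CPM with RUX and at 40.1, 33.2 and 36.4 CPM with CSA. The 3 RUX pools were nearly equal and all above the CSA pools (log2 fold change 0.95, SE 0.17, adjusted p = 0.00985). Izumo1r, the folate receptor 4 protein of regulatory cells, was at 113, 84.0 and 96.2 CPM with RUX and at 52.9, 43.8 and 46.5 CPM with CSA (log2 fold change 1.03, SE 0.16, adjusted p = 0.00294). Ikzf2, which encodes Helios, averaged 96.8 ± 21.2 CPM with RUX and 49.0 ± 8.13 CPM with CSA (log2 fold change 0.98, SE 0.21, adjusted p = 0.0311), a call lost without CSA 16, CSA 17, CSA 18, RUX 20 or RUX 21, adjusted p up to 0.110. Nt5e, the adenosine-producing CD73, averaged 46.7 ± 10.1 CPM with RUX and 24.1 ± 3.74 CPM with CSA (log2 fold change 0.95, SE 0.20, adjusted p = 0.0215), a call lost without CSA 17, CSA 18, RUX 19 or RUX 21, adjusted p up to 0.0868. Itgae, the CD103 integrin chain, averaged 27.8 ± 6.45 CPM with RUX and 11.3 ± 1.02 CPM with CSA (log2 fold change 1.30, SE 0.30, adjusted p = 0.0374), a call lost with each of the 6 left out in turn, adjusted p up to 0.136. Tnfrsf9, the costimulator 4-1BB, was at 154, 126 and 142 CPM with RUX and at 94.4, 91.4 and 80.9 CPM with CSA (log2 fold change 0.66, SE 0.15, adjusted p = 0.0357). Klrg1 was the member called lower.

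Other genes tied to regulatory T cells did not pass. Ctla4, the inhibitory receptor, averaged 217 ± 61.5 CPM with RUX and 239.6 ± 23.4 CPM with CSA (log2 fold change -0.14, SE 0.24, adjusted p = 0.828), Tnfrsf18, which encodes GITR, 351 ± 71.2 CPM with RUX and 365 ± 29.2 CPM with CSA (log2 fold change -0.06, SE 0.19, adjusted p = 0.923), and Ikzf4, which encodes Eos, 13.5 ± 4.44 CPM with RUX and 6.78 ± 2.23 CPM with CSA (log2 fold change 0.99, SE 0.32, adjusted p = 0.142). Foxp3 and Izumo1r were called in every leave-out of a RUX or CSA pool, and 2 to 4 members of the list were called higher in them. Tnfrsf9 lost its call in each of the 6 (adjusted p up to 0.164).

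The remaining helper lists had few calls. Batf, an AP-1 family factor of T helper 17 and follicular cells, was at 291, 296 and 277 CPM with RUX and at 199, 188 and 158 CPM with CSA (log2 fold change 0.67, SE 0.11, adjusted p = 0.00445), the single call among 9 T helper 17 genes tested. Ccr8, a chemokine receptor of T helper 2 and regulatory cells, was at 84.9, 59.7 and 102 CPM with RUX and at 28.3, 26.8 and 34.3 CPM with CSA (log2 fold change 1.46, SE 0.33, adjusted p = 0.0483), the single call among 12 T helper 2 genes tested. Batf was called without any 1 RUX or CSA pool, whereas Ccr8 lost its call in each of the 6 leave-outs (adjusted p up to 0.150).

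Genes of naive and memory cells were called in both directions. Of 27 tested, Slamf6 and Eomes were higher with RUX and Satb1, Bach2 and Foxp1 were lower, against 0.865% and 1.65% of all genes. The list median was -0.43 and became -0.04 without CSA 18. Satb1, a chromatin organiser of naive T cells, was at 51.0, 63.5 and 42.4 CPM with RUX and at 118, 135 and 205 CPM with CSA (log2 fold change -1.55, SE 0.24, adjusted p = 0.00774). Bach2, a repressor that holds back effector differentiation, was at 7.04, 10.4 and 10.5 CPM with RUX and at 19.3, 23.9 and 30.6 CPM with CSA (log2 fold change -1.40, SE 0.26, adjusted p = 0.00985). Foxp1, a factor of T cell quiescence, was at 78.6, 77.9 and 93.1 CPM with RUX and at 104, 125 and 173 CPM with CSA (log2 fold change -0.68, SE 0.15, adjusted p = 0.0235). All 3 were highest in CSA 18. The lymph node homing receptor gene Ccr7 averaged 21.8 ± 6.96 CPM with RUX and 28.5 ± 21.3 CPM with CSA (log2 fold change -0.39, SE 0.44, adjusted p = 0.723). Tcf7, the memory factor TCF-1, averaged 294 ± 75.0 CPM with RUX and 228 ± 88.3 CPM with CSA (log2 fold change 0.36, SE 0.30, adjusted p = 0.600). Satb1 held its call in the leave-outs of RUX and CSA pools, Bach2 lost it without CSA 18 or RUX 19 (adjusted p up to 0.0646) and Foxp1 without CSA 18, RUX 19 or RUX 20 (up to 0.111).

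Among 29 chemokine receptors and adhesion molecules tested, 3 were higher with RUX (Cxcr5, Itgae and Ccr8) and 4 were lower (Itga1, Ccr9, Cd44 and Ccr2), against 0.865% and 1.65% of all genes. The list median was -0.34. Ccr9, the gut-homing receptor, was at 5.68, 2.84 and 3.89 CPM with RUX and at 12.5, 21.9 and 22.1 CPM with CSA (log2 fold change -2.18, SE 0.38, adjusted p = 0.00797). Cd44, the hyaluronan receptor of activated T cells, was at 192, 223 and 229 CPM with RUX and at 297, 322 and 376 CPM with CSA (log2 fold change -0.63, SE 0.11, adjusted p = 0.00877), and lost its call without RUX 19 (adjusted p = 0.0611). Ccr2, a receptor of monocytes and effector T cells, was at 200.2, 115 and 182 CPM with RUX and at 454, 601 and 489 CPM with CSA (log2 fold change -1.64, SE 0.32, adjusted p = 0.0316), a call lost with each of the 6 left out in turn, adjusted p up to 0.111. Beside Ccr2, the summed level of 23 macrophage and monocyte markers, which include Ccr2 itself, was 929 to 1635 CPM with RUX and 1260 to 3146 CPM with CSA. Among inhibitory receptors and their factors, 4 of 21 were higher (Tox, Cd200, Tox2 and Cd101) and 2 lower (Klrc1 and Pdcd1lg2), against 0.865% and 1.65% of all genes. The median of that list was -0.02. The call on Cd101, an inhibitory surface protein gene, was lost without CSA 17, CSA 18, RUX 19, RUX 20 or RUX 21, adjusted p up to 0.147. Lag3 averaged 154 ± 11.2 CPM with RUX and 135 ± 50.5 CPM with CSA (log2 fold change 0.20, SE 0.29, adjusted p = 0.797) and Havcr2, the TIM-3 receptor, 82.4 ± 17.3 CPM with RUX and 129 ± 31.2 CPM with CSA (log2 fold change -0.65, SE 0.23, adjusted p = 0.194).

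Of 28 secreted cytokines and chemokines tested, Xcl1 was higher with RUX and Ccl5, Csf1 and Csf2 were lower, against 0.865% and 1.65% of all genes. Csf1, the macrophage growth factor, was at 249, 173 and 283 CPM with RUX and at 592, 773 and 466 CPM with CSA (log2 fold change -1.38, SE 0.26, adjusted p = 0.0238), and lost its call without CSA 16, CSA 17, RUX 19 or RUX 20 (adjusted p up to 0.0822). Csf2, the growth factor GM-CSF, was at 7.23, 5.19 and 7.44 CPM with RUX and at 27.5, 27.4 and 8.89 CPM with CSA (log2 fold change -1.69, SE 0.40, adjusted p = 0.0409), a call lost without CSA 16, CSA 17, RUX 19, RUX 20 or RUX 21, adjusted p up to 0.185. CSA 18 lay close to the RUX pools for Csf2. The single called member of 30 T cell receptor signalling genes was the kinase Fyn, at 932, 1054 and 1019.8 CPM with RUX and at 605, 753 and 670.1 CPM with CSA (log2 fold change 0.57, SE 0.09, adjusted p = 0.00553). Among 32 apoptosis genes the single call was Bcl2l11, the death-promoting protein BIM, at 38.8, 27.6 and 47.4 CPM with RUX and at 80.6, 113 and 128 CPM with CSA (log2 fold change -1.50, SE 0.22, adjusted p = 0.00363). Fyn and Bcl2l11 held their calls without any 1 RUX or CSA pool.

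Cell cycle genes leaned to one side without passing. All 52 mitosis genes tested had fold changes above 0 with a median of 0.71, and none was called. Mki67, the proliferation marker Ki-67, was at 208, 275 and 168 CPM with RUX and at 189.7, 182 and 117 CPM with CSA, and the groups overlapped (log2 fold change 0.41, SE 0.33, adjusted p = 0.593). Birc5, which encodes survivin, averaged 137 ± 52.8 CPM with RUX and 71.9 ± 20.6 CPM with CSA (log2 fold change 0.92, SE 0.39, adjusted p = 0.274), and Top2a, the mitotic topoisomerase, 329.8 ± 93.7 CPM with RUX and 218 ± 66.9 CPM with CSA (log2 fold change 0.60, SE 0.31, adjusted p = 0.385). Of 44 S phase genes 42 lay above 0 with a median of 0.63. The single call was the replication protein gene Rpa1 (352, 401 and 337 CPM with RUX and 257, 264 and 236 CPM with CSA, log2 fold change 0.53, SE 0.12, adjusted p = 0.0298), which lost its call in each leave-out of a RUX or CSA pool (adjusted p up to 0.153). The list medians ranged from 0.45 to 0.97 for mitosis and from 0.45 to 0.78 for S phase over these leave-outs. These genes vary together between pools, so the number above 0 does not count independent observations.

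Metabolic and housekeeping lists were close to the background share of calls. No gene was called among 56 oxidative phosphorylation, 40 MYC and ribosome biogenesis or 26 NF-kappa-B genes tested. The chaperone and unfolded protein (30 tested), cholesterol and fatty acid (28), glycolysis and hypoxia (32) and costimulation (21) lists held 1 call each. These calls were Atf6, a sensor of unfolded protein (67.0, 63.4 and 59.5 CPM with RUX and 103, 137 and 134 CPM with CSA, log2 fold change -0.97, SE 0.14, adjusted p = 0.00198), Abca1, a cholesterol exporter (12.9, 6.96 and 5.37 CPM with RUX and 22.6, 19.6 and 28.6 CPM with CSA, log2 fold change -1.48, SE 0.36, adjusted p = 0.0465), the oxidase gene Ero1l of protein folding (log2 -0.57, adjusted p = 0.0256) and, for costimulation, Tnfrsf9. Abca1 lost its call in all leave-outs of a RUX or CSA pool but the one without RUX 19 (adjusted p up to 0.198), and Ero1l in all but the one without RUX 21 (up to 0.145).

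Each drug was then set beside CD4 cells from untreated mice. Those comparisons share the untreated pools, and each shares a drug group with the direct contrast. No gene was called for RUX against untreated mice by edgeR (0%), with 548 genes at an unadjusted p under 0.05 and a smallest adjusted p of 0.497, while DESeq2 called 12. For CSA against untreated mice 195 genes were called (1.48%), 132 higher (1%) and 63 lower (0.478%). That count was 13 in a fit of the CSA and untreated pools alone, 111 without CSA 17 and 48 without CSA 18. Of the 331 genes called between the drugs, 155 were also called for CSA against untreated mice. An effect past the threshold for one drug and not for the other does not by itself show a difference, which the direct contrast tests.

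Side by side, Il12rb2 had log2 -0.60, adjusted p = 1 for RUX against untreated mice and log2 1.43, adjusted p = 0.000599 for CSA against untreated mice. Klrc1 had log2 -0.07, adjusted p = 1 with RUX and log2 2.73, adjusted p = 0.00436 with CSA. Foxp3 had log2 -0.05, adjusted p = 1 with RUX and log2 -0.99, adjusted p = 0.0127 with CSA. For Gzmb the values were log2 -0.82, adjusted p = 1 with RUX and log2 1.43, adjusted p = 0.0112 with CSA, and for Satb1 log2 -0.38, adjusted p = 1 with RUX and log2 1.17, adjusted p = 0.0377 with CSA. Summed erythroid markers did not overlap there either, with 289 to 473 CPM in CSA pools and 3.40 to 83.6 CPM in untreated pools. Summed neutrophil markers overlapped, with 3757 to 18580 CPM in CSA pools and 102 to 9665 CPM in untreated pools. In the untreated pools these genes were at 71.3 ± 17.2 CPM (Il12rb2), 57.0 ± 2.20 CPM (Klrc1), 72.9 ± 21.8 CPM (Foxp3), 190.0 ± 37.9 CPM (Gzmb) and 67.9 ± 17.4 CPM (Satb1; SD, n = 3).

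On log2(CPM + 1), the untreated mean lay nearer to the RUX mean than to the CSA mean in 301 of the 331 called genes and in 63.2% of all genes tested. Between CSA at 0 and RUX at 1, the median position of untreated mice was 0.80 (quartiles 0.64 and 0.94). It was 0.77 for genes higher with RUX and 0.82 for genes lower with RUX. In 59 genes the untreated mean was at or beyond the RUX mean. The combination lay elsewhere. RUX+CSA means were nearer to CSA in 209 of the 331 genes and nearer to RUX in 122, with 53.9% of all genes nearer to CSA. The median position of RUX+CSA was 0.55 for genes higher with RUX and 0.33 for genes lower with RUX. Because the genes were chosen for the difference between RUX and CSA, these positions are descriptions and were not tested.

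Single genes showed both kinds of position in RUX+CSA mice. Lmna was at 65.7, 39.8 and 45.4 CPM in the 3 RUX+CSA pools, Klrc1 at 411, 329 and 307 CPM and Klrk1 at 149.8, 199.6 and 128 CPM, all far above their RUX values. Foxp3 was at 40.6, 30.1 and 35.8 CPM and Pkdcc at 8.79, 12.3 and 10.1 CPM, again closer to CSA. Gzmb was at 209, 146 and 272 CPM, between the drugs, and Ly6g5b at 2.44, 2.12 and 3.52 CPM, close to its RUX values. Sostdc1 at 156, 144 and 86.1 CPM was above both single drugs, and Cxcr5 at 45.8, 32.2 and 33.9 CPM was near its RUX values. The RUX+CSA pools also held more B and plasma cell marker RNA, with summed levels of 38.5 to 135 CPM, against 19.1 to 21.9 CPM in RUX pools and 18.6 to 27.6 CPM in CSA pools.

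**Figure D4:**
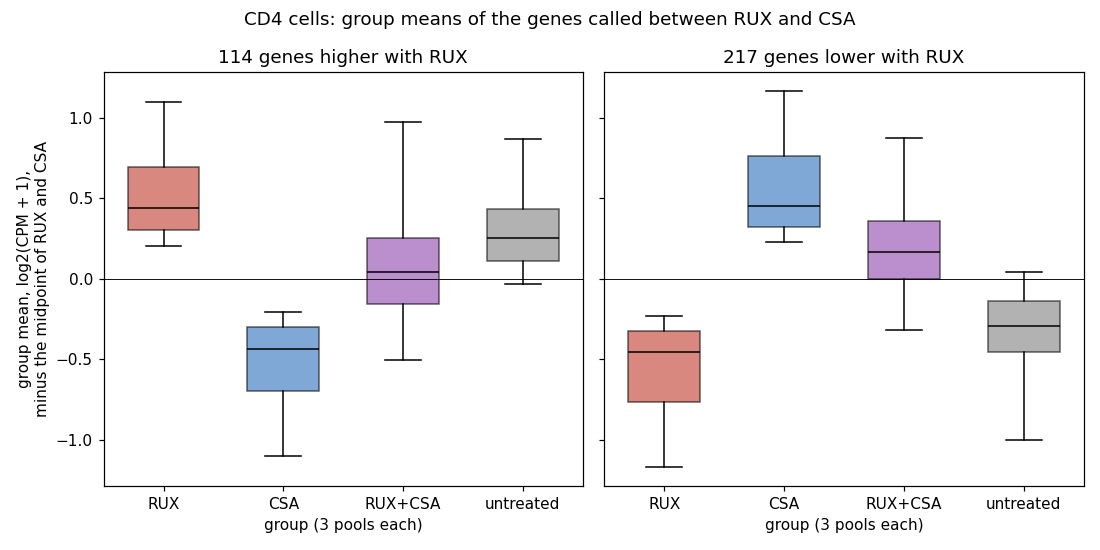
Group means of the called genes as log2(CPM + 1) minus the midpoint of the RUX and CSA means, for 114 genes higher (left) and 217 lower (right) with RUX, with boxes at the quartiles, a line at the median and whiskers at the percentiles 5 and 95. The untreated boxes lie on the RUX side of 0 in both panels, and the RUX+CSA boxes lie on the CSA side among genes lower with RUX and around 0 among genes higher with RUX.

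The same contrast was read in CD8 cells to ask whether the drug difference was particular to CD4 cells. An unpaired test of the difference between cell types over all 24 libraries called no gene of 13476 tested (0%), with 1208 at an unadjusted p under 0.05 and a smallest adjusted p of 0.13. DESeq2 called 35 genes for this difference. Without CD4 CSA 16 the single gene called was Pde3b (log2 difference -1.55, adjusted p = 0.00674), and without CD4 RUX 21 it was Acoxl (log2 difference -4.34, adjusted p = 0.0414). Both genes are named after their values were seen.

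The CD8 pools CSA 6 and RUX 7 did not lie with the other pools of their labels. Klrc1 was at 1219, 358 and 364 CPM in CD8 RUX pools 7, 8 and 9 and at 1109, 1325 and 344 CPM in CD8 CSA pools 4, 5 and 6. Lmna was at 35.3, 3.20 and 2.94 CPM in the RUX pools and at 15.4, 20.3 and 4.17 CPM in the CSA pools, in the same order. For Itgax the RUX pools read 289, 31.4 and 21.9 CPM and the CSA pools 223, 319.9 and 22.9 CPM. In all 3 genes the library labelled RUX 7 was at or above the level of CSA 4 or 5, and the library labelled CSA 6 at the level of RUX 8 and 9. With all 6 CD8 pools, 251 of the 331 genes (75.8%) had the same sign in CD8 as in CD4 cells, against 49.2% of all genes tested, and the median log2 fold change in CD8 was 0.14 for genes higher and -0.12 for genes lower with RUX in CD4. Without CSA 6 and RUX 7 the same sign was found in 313 genes (94.6%), against 65.5% of all genes tested, and the medians in CD8 were 0.64 and -0.56, beside 0.90 and -0.95 in CD4. These 2 pools were chosen after their values had been seen, so the larger number is not independent support. The difference between cell types also called no gene without them (627 at an unadjusted p under 0.05).

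**Figure D5:**
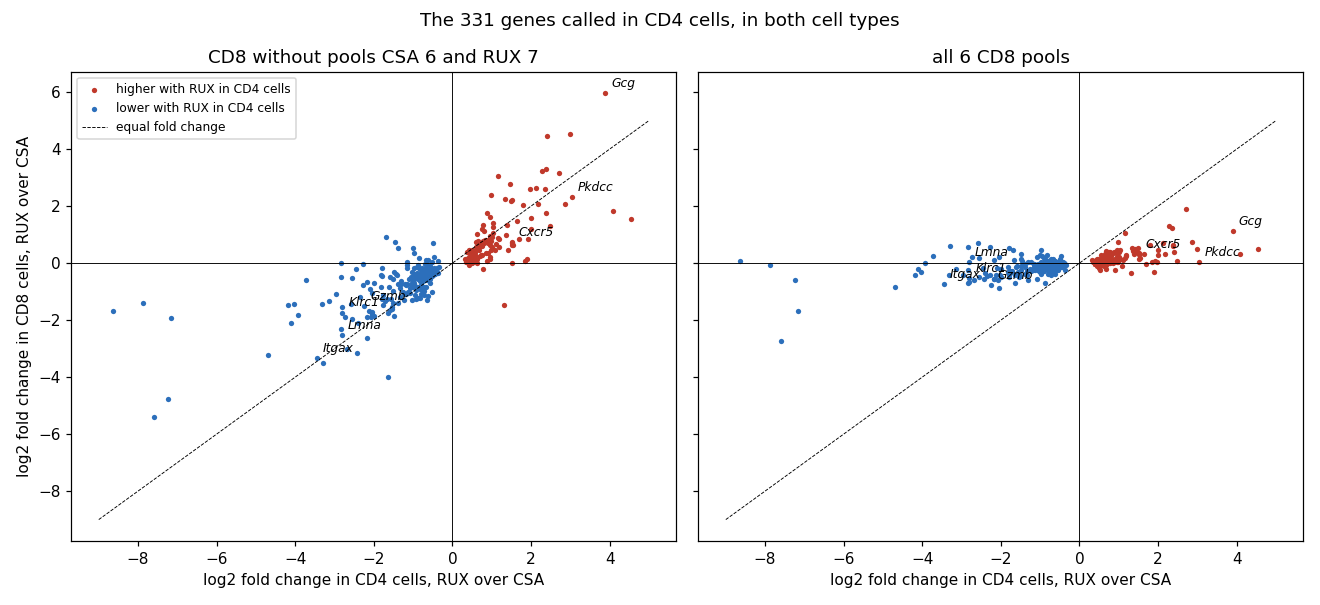
Log2 fold change, RUX over CSA, of the 331 called genes in CD4 cells (horizontal) and in CD8 cells (vertical), without CD8 pools CSA 6 and RUX 7 (left) and with all 6 CD8 pools (right), where the dashed line marks equal fold changes. In the left panel 313 genes have the same sign in both cell types, and in the right panel 251 do, with CD8 values close to 0.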

How the data were processed

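CD4 and CD8 T cells were sorted from the marrow of mice with bone marrow failure, and libraries were made with the SMART-Seq mRNA LP kit, per the labels. The deposited values are raw counts of read pairs per gene. Per the file headers, they were counted with featureCounts 2.0.3 in paired-end mode over exons of the UCSC mm10 genes, with no multi-mapped reads and no strand setting, so overlapping and antisense genes cannot be separated. Alignment used STAR on mm10, per the submitters' processing notes. The STAR version is not given in the sources used here. Of 24421 genes in the table, 13175 passed filterByExpr in the 12 CD4 libraries and were tested with edgeR 4.0.16 in R 4.3.3 (TMM scaling, robust quasi-likelihood fit on group means, two-sided, Benjamini-Hochberg adjustment over all genes, threshold 0.05). Every adjusted p given comes from this test unless another tool is named. The standard error comes from the F statistic. The difference between cell types was fitted on all 24 libraries (13476 genes). CPM of genes used TMM-scaled totals, except for Cd4, Cd8a, Alas2 and Ncr1, which, like the marker sums, used all counted read pairs. Means are given with the SD over 3 pools. Whether pools share mice, within a group or between CD4 and CD8 libraries, is not given in the sources used here, and p-values measure the spread between pools. Alternatives were DESeq2 1.42.0, limma 3.58.1 (voom), median ratio scaling, other count filters, other sets of libraries, a marker covariate and leaving out each pool. Leaving out CD8 CSA 6 and RUX 7 was added after seeing the data. The members and the 28 function and 14 marker lists were chosen with earlier results of these data known. Named genes were the 12 highest and 12 lowest called genes by fold change with mean log2 CPM of at least 2 and groups that do not overlap, up to 3 called members per list and 12 fixed genes. Other list members that are named were picked after their values were seen. Promoter sequences are from RefSeq on GRCm38.p6. A few genes are not reported here.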

Additional observations from a re-analysis of the deposited data

How the results depend on the processing

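All libraries were treated as unpaired, because pool numbers are not shared between groups or cell types. The numbers alone do not show whether CD4 and CD8 libraries came from the same mice, which is not given in the sources used here. For CD4 RUX against CSA, 331 genes were called in the analysis reported and 749 by DESeq2, which included all 331. Other scalings, filters and models gave 280 (all 24 libraries) to 396 (marker covariate). Leaving out 1 of the 12 CD4 pools gave 126 to 431 genes, the lowest without RUX 19 and the highest without untreated 14. Against untreated mice, RUX gave 0 genes, 12 by DESeq2 and 0 to 15 with a pool left out. CSA against untreated mice gave 195 genes, 655 by DESeq2, 13 in a fit of the 2 groups alone and 48 to 204 with a pool left out. The difference between CD4 and CD8 gave 0 genes, 35 by DESeq2 and 0 to 1 with a pool left out. The cause of these shifts was not tested. Of 59 called named genes, 34 stayed called without any 1 RUX or CSA pool and 23 in every alternative, and none of 1180 values under alternatives was reversed. Among genes not called, leave-out values spanned 0 for Bcl2 (-0.072 to 0.1749), Ifng (-0.2191 to 0.3162), Cish (-0.1069 to 0.3577), Il2ra (-0.0798 to 0.4669) and Egr2 (-0.1069 to 0.3751). With the marker covariate Cish was at -0.1106 and Bcl2 at -0.2173. Some list medians also changed sign with a RUX or CSA pool left out, for example those of T helper 17 (-0.14 to 0.46), T helper 1 (-0.15 to 0.03) and immediate early genes (-0.41 to 0.15). With 3 pools a group, missing a threshold does not show that a gene did not differ.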

Other observations

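Several genes outside the lists were called between RUX and CSA in CD4 cells, and are named here after their values were seen, as values only. Epas1, the hypoxia-inducible factor HIF-2alpha, was at 13.9, 13.0 and 13.6 CPM with RUX and at 34.1, 48.6 and 54.2 CPM with CSA (log2 fold change -1.76, SE 0.17, adjusted p = 0.000217), and stayed called without any 1 RUX or CSA pool. The zinc-finger genes Hivep1 (log2 -0.62), Hivep2 (-0.74) and Hivep3 (-2.09) were all lower with RUX. Hivep3 was called in each leave-out of a RUX or CSA pool, and the calls on the other two were lost in part. Hivep2 lost its call without RUX 20, adjusted p = 0.0540, and Hivep1 lost it without CSA 17, CSA 18, RUX 19, RUX 20 or RUX 21, adjusted p up to 0.148. The metallothionein genes Mt1 (log2 -1.79) and Mt2 (-2.84) were lower with RUX, and so were the retinoid receptor genes Rara (-0.96) and Rxra (-1.08). Rara and the membrane protein gene Ifitm1 (log2 -1.30) stayed called in each of these leave-outs. Adjusted p reached 0.108 for Mt1, 0.192 for Mt2 and 0.116 for Rxra in them.

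The haem synthesis genes Fech (log2 -0.70) and Cpox (-0.70) and the mitochondrial iron importer gene Slc25a37 (-1.45) were lower with RUX, beside summed erythroid marker levels of 37.6 to 81.3 CPM with RUX and 289 to 473 CPM with CSA. The part of erythroid RNA in these 3 genes was not tested. Their adjusted p-values reached 0.0873 for Fech, 0.152 for Cpox and 0.155 for Slc25a37 when a RUX or CSA pool was left out. Itgb8, the integrin chain that activates TGF-beta, was at 2.28, 4.41 and 7.93 CPM with RUX and at 0.743, 1.71 and 0.278 CPM with CSA (log2 fold change 2.40, SE 0.58, adjusted p = 0.0434), a call lost without CSA 16, CSA 18, RUX 20 or RUX 21, adjusted p up to 0.153.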
